A study of Mus musculus with 12 samples.

Results

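The immunity-related GTPases (IRGs) described here are Irgm1, Irgm2, Igtp, Iigp1, Tgtp1 and Tgtp2, 6 of the 27179 genes in the count table. They were chosen by gene symbol and not by a cut-off on their values, but with earlier results of these data known. All 6 had enough reads to be among the 12910 genes tested. RNA was sequenced from MC38-idAdpgkG, a stably transfected derivative of the mouse C57BL/6 colon carcinoma line MC38. Every group carried the transgene, a doxycycline-inducible Adpgk(R304M) fused to turboGFP, whose protein can be degraded with dTAG-13, a small molecule that brings a tagged protein to a ubiquitin ligase. Every group also received 20 ng/mL mouse interferon-gamma (IFNγ), so induction of the IRGs by IFNγ itself was not measured. Control cells had IFNγ alone for 51 h, and the doxycycline group had it together with doxycycline at 1 µg/mL over the same 51 h. The dTAG-13 group received 1 µM dTAG-13 after 48 h, for the last 3 h, and the remaining group received both agents on these schedules. Each group was 1 culture measured in 3 libraries, which the labels call technical replicates. Errors and p-values cover only the spread between such libraries, and a difference between treatments cannot be told apart from a difference between cultures.

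IRGs are large GTPases made in response to interferons, and in mouse cells they defend against microbes that live inside vacuoles. Effector IRGs, among them Iigp1 (also called Irga6) and the Tgtp proteins (Irgb6), load onto the vacuole membrane and help to disrupt it. The regulatory IRGs Irgm1, Irgm2 and Igtp (Irgm3) sit on the cell's own membranes and keep the effectors inactive there. Transcription of the family is known to be switched on downstream of the IFNγ receptor, with Irf1 among the factors involved.

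Irgm1, Irgm2, Igtp, Tgtp1 and Tgtp2 lie on chromosome 11 (RefSeq, GRCm38.p6). Igtp (Entrez 16145, chr11:58199556-58207592) and Irgm2 (54396, chr11:58214977-58222783) are neighbours on the plus strand. Irgm1 (15944, chr11:48865245-48871420), Tgtp1 (21822, chr11:48985329-48992246) and Tgtp2 (100039796, chr11:49057196-49064212) lie on the minus strand. RefSeq promoter windows are described for these 5 genes only. Iigp1 was left out of this step, so its promoter is not described. The 100 bases before each annotated start are shown because they hold the letters of binding motifs for interferon-activated factors. Capitals mark GAAANNGAAA, the core of an interferon-stimulated response element, and TTCNNNGAA, a gamma-activated site that reads the same on both strands. The windows are chr11:48871421-48871520 for Irgm1, chr11:58214877-58214976 for Irgm2, chr11:58199456-58199555 for Igtp, chr11:48992247-48992346 for Tgtp1 and chr11:49064213-49064312 for Tgtp2. Each is written 5′ to 3′ on the strand of its gene.
Irgm1: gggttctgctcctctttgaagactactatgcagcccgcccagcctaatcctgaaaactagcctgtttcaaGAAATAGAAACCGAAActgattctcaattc
Irgm2: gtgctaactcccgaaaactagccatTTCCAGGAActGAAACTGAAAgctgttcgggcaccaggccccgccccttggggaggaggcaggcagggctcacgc
Igtp: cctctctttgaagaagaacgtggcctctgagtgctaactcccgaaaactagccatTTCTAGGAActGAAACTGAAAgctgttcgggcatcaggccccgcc
Tgtp1: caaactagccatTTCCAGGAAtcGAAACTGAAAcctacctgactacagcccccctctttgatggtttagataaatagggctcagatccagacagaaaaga
Tgtp2: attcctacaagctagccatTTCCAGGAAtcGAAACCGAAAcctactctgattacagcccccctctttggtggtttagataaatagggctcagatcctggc

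All 5 promoters shown held GAAANNGAAA, which was present on either strand in 3.44% of 32851 RefSeq promoter windows of 300 bases. In Irgm1 it occurred in 2 overlapping copies, 30 and 24 bases before the start, and this window held no TTCNNNGAA. Irgm2, Igtp, Tgtp1 and Tgtp2 each held both motifs, with GAAANNGAAA beginning 11 bases after the first base of TTCNNNGAA. Both motifs were found in 0.454% of all windows, and the 11-base arrangement in 5 windows (0.0152%), those of these 4 genes and of Gm12185, another IRG gene. The spacing was chosen after the sequences had been seen, so these shares are a description. A match is not evidence of binding.

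The libraries held 22165538 to 32809573 counts. Adpgk, which marks the doxycycline label, was 157.6 to 162.0 CPM (the read count scaled to the normalised library size) in control libraries and 1315 to 1354 CPM with doxycycline. The cells are labelled as colon carcinoma, yet none of 9 epithelial markers had a mean of 1 CPM, and Epcam and Cdx2 had no read, which allows up to 0.135 CPM in the shallowest library. Of 9 mesenchymal markers 6 had a mean of at least 1 CPM. Markers of macrophages and dendritic cells, which also express IRGs, summed to between 7.28 and 10.96 CPM, and Cd14, at a mean of 7.03 CPM, made up most of it, with Ptprc at 0.0088 CPM. The sum was 7.28 to 9.2 CPM without dTAG-13 and 9.61 to 10.96 CPM with it, and its part in the results was not tested. Libraries of a group differed by more than counting noise, most of all replicate 3 with both agents, and none was counted as a duplicate. Without that replicate no call of the 6 genes was lost, and calls were gained for the Tgtp1 interaction (0.0965) and for Irgm2 with dTAG-13 against control (-0.0623). In bulk RNA, fewer cells expressing a gene and less RNA per cell cannot be told apart.

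Among the regulators, Irgm1 was highest in control, at 449.2, 446.5 and 462.0 CPM in the 3 libraries. It was 405.9, 403.1 and 404.4 CPM with doxycycline, 381.6, 379.0 and 380.6 CPM with both agents, and 354.6, 363.2 and 359.9 CPM with dTAG-13. The 4 groups did not overlap, and every treated library was below every control library. Irgm2 was 196.8, 208.1 and 206.3 CPM in control and 240.5, 236.6 and 243.9 CPM with doxycycline. It was 201.2, 204.1 and 205.7 CPM with both agents, and 197.7, 193.4 and 196.8 CPM with dTAG-13. The doxycycline libraries were above the other 9. Igtp was 447.5, 452.0 and 449.8 CPM in control and 470.6, 457.5 and 463.1 CPM with dTAG-13. It was 548.3, 566.5 and 542.1 CPM with doxycycline, and 558.1, 561.3 and 549.9 CPM with both agents. Igtp libraries thus fell into a lower set without doxycycline and a higher set with it, and within the higher set the groups overlapped.

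Among the effectors, Iigp1 (Entrez 60440) is the only one of the 6 genes on chromosome 18. Iigp1 was 371.0, 381.1 and 372.2 CPM in control and 395.1, 390.0 and 387.4 CPM with dTAG-13. It was 442.5, 452.1 and 450.7 CPM with doxycycline, and 490.0, 487.1 and 491.8 CPM with both agents. The 4 groups did not overlap, with both agents highest. Tgtp1 was 278.1, 281.0 and 287.6 CPM in control and 287.7, 284.1 and 274.9 CPM with doxycycline, and these groups overlapped. It was 295.6, 303.8 and 297.3 CPM with dTAG-13, and 313.4, 323.6 and 309.4 CPM with both agents, both above all control and doxycycline libraries. Tgtp2, which has a similar sequence, was 121.6, 124.3 and 128.4 CPM in control and 130.2, 141.8 and 131.9 CPM with doxycycline. It was 129.9, 138.7 and 131.2 CPM with dTAG-13, and 144.0, 150.4 and 151.2 CPM with both agents. The control libraries were lowest and those with both agents highest, while the doxycycline and dTAG-13 groups overlapped. Of the 75-base words in Tgtp2 transcripts, 81.35% also occur in Tgtp1, and 74.63% the other way, so the split of reads between these genes is uncertain. Only 7.8% of Igtp words occur in Irgm2, and no other pair of the 6 genes shared a word, apart from the reverse of the Igtp and Irgm2 pair (4.53%). In GENCODE, Irgm2 and Igtp share 162 bases of exon on the same strand, and Tgtp1 shares 223 with Gm12185, another IRG gene. Such overlaps can also affect the counts of these genes.

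**Figure D1:**
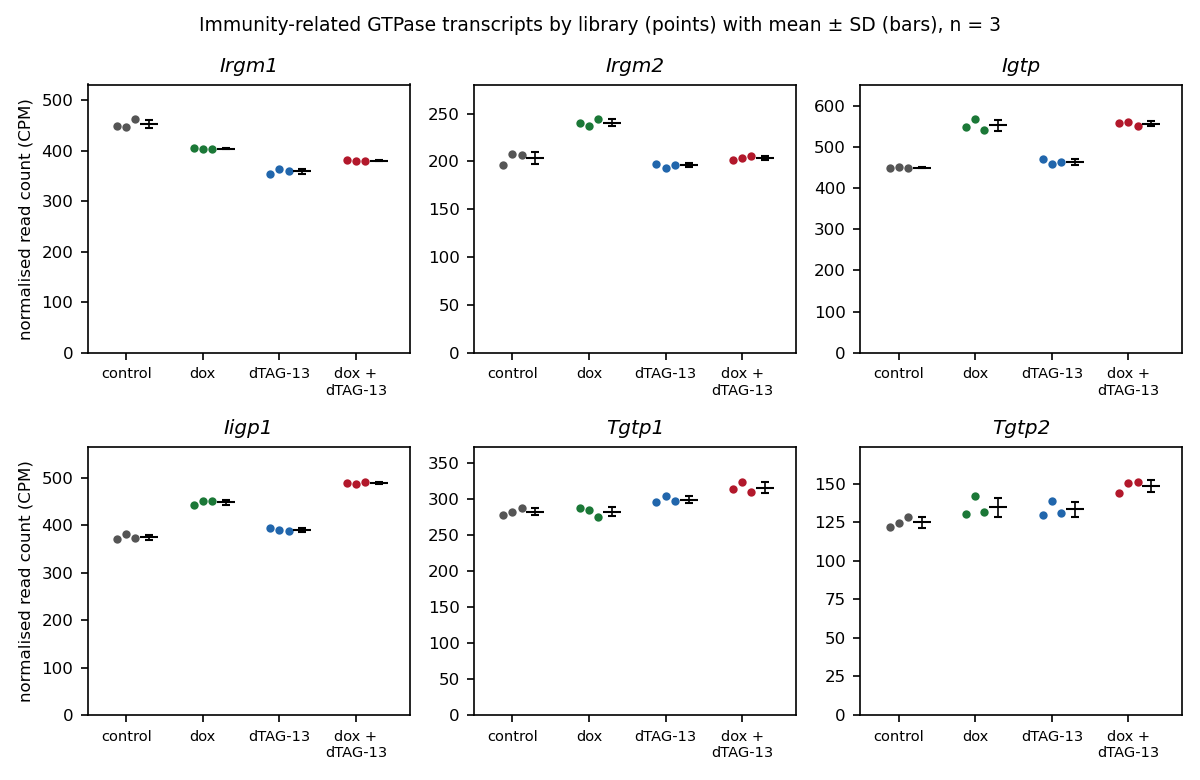
Normalised read count (CPM) of the 6 IRG genes in each of the 12 libraries, by treatment group; points are libraries and bars are mean ± SD (n = 3). Irgm1 is highest in control, Igtp and Iigp1 are highest in the groups with doxycycline, and Irgm2 is highest with doxycycline alone.

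Levels can be compared between genes only per length. In CPM per kilobase of exon in control, Igtp was highest at 222.4, followed by Tgtp1 at 88.1, Irgm1 at 77.9, Iigp1 at 64.4, Irgm2 at 55.2 and Tgtp2 at 42.5, with no overlap between neighbours. In the other 3 groups Iigp1 stood above Irgm1. With the longest transcript as the length, Igtp remained first and Irgm2 and Tgtp2 last. In control, Iigp1 (120.1) and Irgm1 (118.1) then moved above Tgtp1 (99.98) and overlapped. With dTAG-13 and with both agents, Tgtp1 (105.9 and 111.8) stayed above Irgm1 (93.74 and 99.27). Reads may have been lost where Tgtp1 and Tgtp2 share sequence, as the treatment of multi-mapping reads is not given. The places of Tgtp1 and Tgtp2 in these orders are therefore uncertain.

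Doxycycline against control compares cells with and without induction of the transgene. No group had doxycycline without the transgene, so the drug itself and the induced protein cannot be told apart. Of the 6 genes, 4 rose and Irgm1 fell, so 5 were called at an edgeR adjusted p under 0.05, beside 33.5% of all genes (14.8% higher and 18.7% lower). Over all genes the split was 1917 higher and 2414 lower, 2546 and 1609 with scaling by library size alone, and 1542 and 2998 with transcript length and GC content corrected for. Libraries did not overlap for 5 genes, beside 43.9% of all genes. Igtp rose by 22.8% (log2 fold change 0.30, SE 0.0212, adjusted p 1.01e-14), Iigp1 by 19.65% (0.26, SE 0.0212, adjusted p 5.37e-13) and Irgm2 by 17.97% (0.24, SE 0.0252, adjusted p 5.45e-10). Regulators and effectors were both among the genes that rose. Tgtp2 rose by 7.94% (0.11, SE 0.0321, adjusted p 0.00662), a call lost without control replicate 1 (0.088) or doxycycline replicate 2 (0.084), with the length and GC correction (0.0745, adjusted p 0.0675), and when Tgtp1 and Tgtp2 reads were summed (0.035). Irgm1 fell by 10.62% (log2 fold change -0.16, SE 0.0214, adjusted p 8.52e-08). Tgtp1 was not called, and its log2 fold change of 0.0002 had a 95% interval from -0.049 to 0.05. The median log2 fold change was 0.17 over the 6 genes and -0.01 over all genes.

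The same comparison in the presence of dTAG-13 used other libraries. With both agents against dTAG-13 alone, 5 of the 6 genes were called higher and none lower, beside 20.4% of all genes called (10.7% higher and 9.64% lower). The split over all genes was 1386 higher and 1244 lower, 926 and 2131 with scaling by library size alone, and 1592 and 1030 without a filter on low counts. Libraries did not overlap for all 6 genes, beside 34.3% of all genes. Iigp1 rose by 25.28% (log2 fold change 0.33, SE 0.0212, adjusted p 9.43e-16) and Igtp by 19.99% (0.26, SE 0.0213, adjusted p 5.88e-13). Tgtp2 rose by 11.53%, Irgm1 by 5.9% and Tgtp1 by 5.53% (edgeR adjusted p 0.0003, 0.00447 and 0.0185). Irgm1 was thus higher with doxycycline here, a call lost with scaling by library size alone (0.0482, adjusted p 0.108), and lower with it in the absence of dTAG-13. Irgm2 had a log2 fold change of 0.056 (95% interval 0.0043 to 0.11, adjusted p 0.12). The Tgtp1 call was lost without replicate 2 with both agents or dTAG-13 replicates 1 or 3 (0.0592 to 0.0757) and with scaling by library size alone (0.0432, adjusted p 0.217), which left 3 genes called.

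dTAG-13 for 3 h was compared with control in cells whose transgene was not induced. Irgm1 fell by 20.63% (log2 fold change -0.33, SE 0.0215, adjusted p 4.68e-17). The effectors Tgtp2, Tgtp1 and Iigp1 rose by 6.85%, 5.91% and 4.29% (edgeR adjusted p 0.00954, 0.00319 and 0.0128), which made 4 called genes beside 62.1% of all genes (30% higher and 32.1% lower). The split over all genes was 3877 higher and 4144 lower, 5255 and 3115 with scaling by library size alone, and 2781 and 3903 with the length and GC correction. Libraries did not overlap for 5 genes, beside 65.5% of all genes. Irgm2 (-0.056, adjusted p 0.055) and Igtp (0.044, adjusted p 0.07) were not called. Irgm2 was called lower, however, when any 1 of 7 libraries was left out (control replicate 1, dTAG-13 replicate 1, each doxycycline replicate, or replicate 2 or 3 with both agents; -0.0871 to -0.0573). Igtp was called higher with scaling by library size alone (0.1355) and with a filter of 1 CPM (0.051). With transcript length and GC content corrected for, the effector rises were reversed, with Iigp1 at -0.2, Tgtp1 at -0.11 and Tgtp2 at -0.098. Igtp (-0.076) and Irgm2 (-0.097) were then also called lower. The Iigp1 call was also lost without control replicate 1 or 3 or dTAG-13 replicate 1 (0.0465 to 0.0486), and that of Tgtp2 without control replicate 1 (0.0701) or dTAG-13 replicate 2 (0.0589). Across 11745 genes the log2 fold change ran with transcript length at a Spearman correlation of -0.415, a description over genes that are not independent. The drop of Irgm1 held in all 22 alternatives tried, from -0.37 to -0.24. Summed mesenchymal markers were 3297 to 3365 CPM without dTAG-13 and 2454 to 2582 CPM with it, and their part in these results was not tested.

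In cells with doxycycline, addition of dTAG-13 went with lower Irgm1 and Irgm2 and, before any length correction, higher effector transcripts. Irgm2 fell by 15.21% (log2 fold change -0.24, SE 0.0254, adjusted p 8.4e-11) and Irgm1 fell by 5.95% (-0.089, SE 0.0216, adjusted p 0.000445). Tgtp1, Tgtp2 and Iigp1 rose by 11.76%, 10.4% and 9.2% (edgeR adjusted p 2.84e-07, 0.000173 and 1.57e-06), so that 5 genes were called beside 64.1% of all genes (30.7% higher and 33.4% lower). Libraries did not overlap for 5 genes, beside 67.2% of all genes. Igtp was not called, at 0.011 (95% interval -0.032 to 0.053). With the length and GC correction the falls of Irgm1 and Irgm2 remained called, while Iigp1 was -0.087 and called lower, Igtp was -0.13 and called lower, and Tgtp1 (0.0021) and Tgtp2 (-0.017) were not called. The Spearman correlation of log2 fold change with transcript length was -0.547 in this comparison. The median log2 fold change of the 6 genes was 0.069, beside 0.0032 over all genes.

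**Figure D2:**
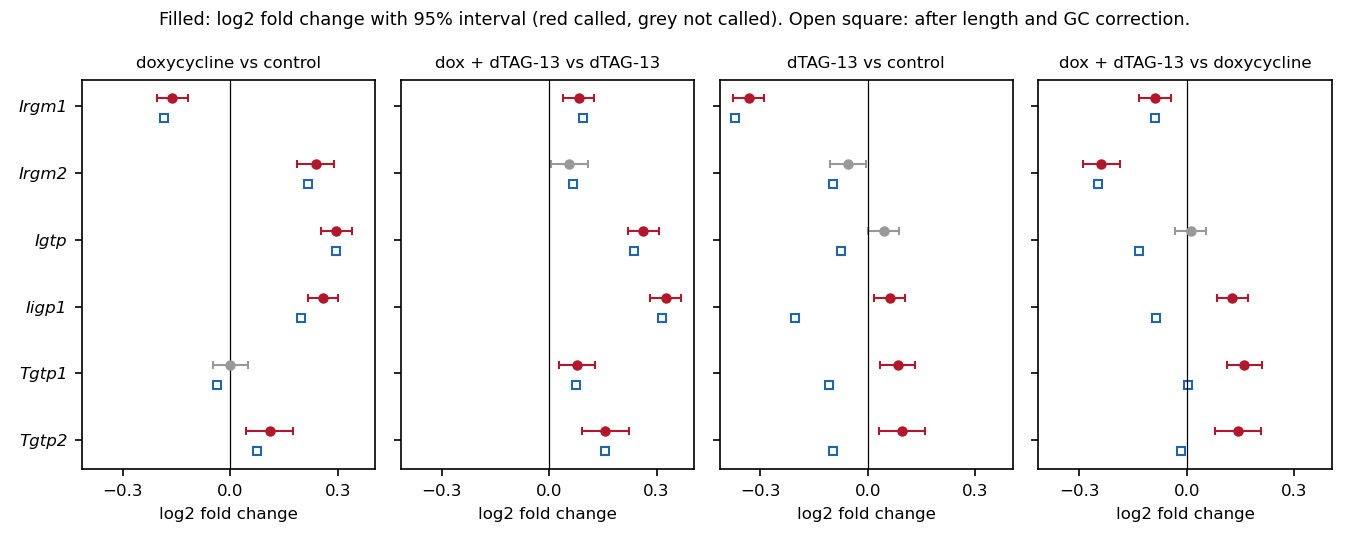
Log2 fold change of each IRG gene in the comparisons of treatment groups, with 95% intervals from the edgeR fit of all 12 libraries (red called, grey not called); open squares are values after the length and GC correction. Igtp and Iigp1 lie near 0.3 in both doxycycline comparisons, and Irgm1 lies lowest, at -0.33, for dTAG-13 against control.

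With both agents against control, 5 genes were called, 4 higher and 1 lower, beside 66.3% of all genes (32.5% higher and 33.8% lower). Libraries did not overlap for 5 genes, beside 68.8% of all genes. Iigp1 rose by 30.66% (log2 fold change 0.39, SE 0.0213, adjusted p 2.37e-19) and Igtp by 23.71% (0.31, SE 0.0213, adjusted p 3.43e-16). With the length and GC correction both remained called, at 0.1114 for Iigp1 and 0.1615 for Igtp. Tgtp2 rose by 19.17% and Tgtp1 by 11.77%, but neither was called with the length and GC correction, at 0.057 and -0.034. Irgm1 fell by 15.94% (-0.25, SE 0.0215, adjusted p 2.03e-13). Irgm2 was not called, with a log2 fold change of 0.0004 and a 95% interval from -0.051 to 0.052. This comparison shares libraries with the others and is not independent of them.

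The interaction is the dTAG-13 difference with doxycycline minus that without it, and 2 of the 6 genes were called beside 22.9% of all genes (13.2% higher and 9.64% lower). The split over all genes was 1705 higher and 1245 lower, 818 and 2423 with scaling by library size alone, and 1973 and 892 with the length and GC correction. Irgm1 had a value of 0.24 (SE 0.0304, adjusted p 7.17e-08), a smaller drop with dTAG-13 when doxycycline was present. Irgm2 had a value of -0.18 (SE 0.036, adjusted p 0.000197), a larger drop when doxycycline was present. Igtp, Iigp1, Tgtp1 and Tgtp2 were not called, with values of -0.034, 0.066, 0.078 and 0.047. With the length and GC correction, however, Iigp1 (0.1176) and Tgtp1 (0.1118) were called. Tgtp1 was also called without replicate 3 with both agents (0.0965), and Igtp with scaling by library size alone (-0.1039). The Irgm1 and Irgm2 calls held in all 21 alternatives tried.

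Read ratios within a library do not depend on library scaling. They are not corrected for transcript length, however, and 20.8% of genes were shorter than Igtp, beside 58.3% for Irgm1 and 52.7% for Irgm2. Irgm1 had 1.004, 0.9879 and 1.027 reads per Igtp read in control and 0.7402, 0.7115 and 0.746 with doxycycline. The ratio was 0.7534, 0.7938 and 0.7772 with dTAG-13, and 0.6838, 0.6751 and 0.6921 with both. All treated libraries were below the control libraries, and those with both agents were lowest. Irgm2 had 0.4529 ± 0.0113 reads per Igtp read in control, 0.4354 ± 0.0164 with doxycycline, 0.4226 ± 0.00244 with dTAG-13 and 0.3661 ± 0.00712 with both (SD, n = 3). Its control and doxycycline libraries overlapped. For dTAG-13 against control, the log2 fold changes of Irgm2 and Igtp were -0.0558 and 0.044. With the length and GC correction they were closer together, at -0.0971 and -0.0763, so the size of this difference depended on that correction. The separate parts of length and GC content were not tested. Iigp1 had 0.8332 ± 0.00854 reads per Igtp read in control and 0.8121 ± 0.0172 with doxycycline, also with overlap. Irgm1 made up 23.97% ± 0.34 of the reads of the 6 genes in control and 18.16% ± 0.146 with both agents. With library scaling, the 6 genes together were 1888 ± 21.6 CPM in control and 2062 ± 19.3 CPM with doxycycline. They were 2094 ± 9.79 CPM with both and 1842 ± 5.58 CPM with dTAG-13. As a share of all reads, without that scaling, they were 0.1828% in control, 0.2048% with doxycycline, 0.211% with both and 0.1901% with dTAG-13. The difference between dTAG-13 and control thus changed direction with the scaling.

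**Figure D3:**
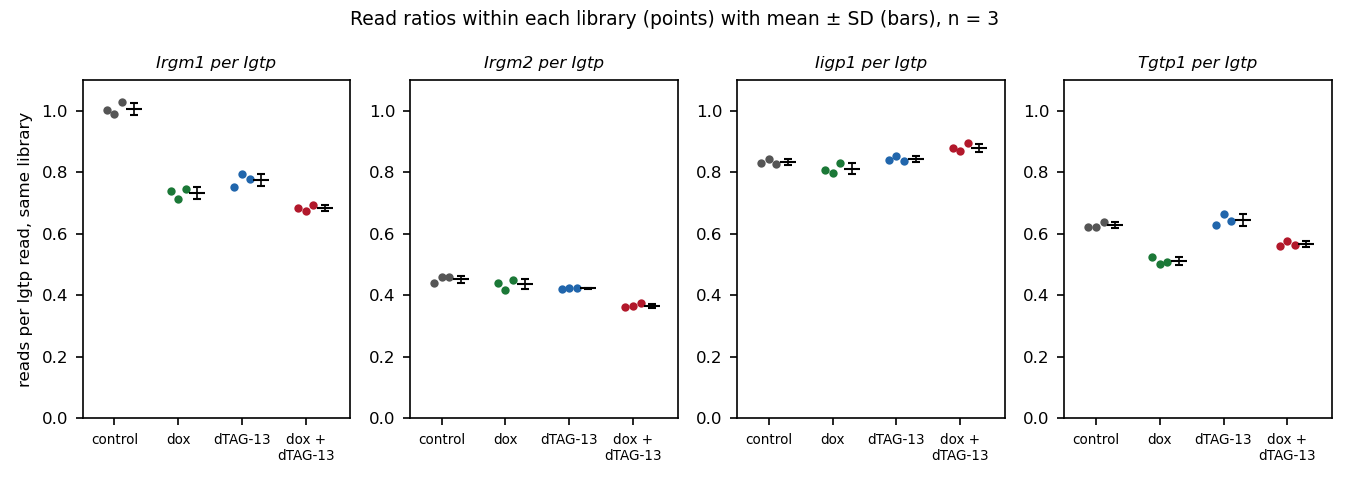
Reads of Irgm1, Irgm2, Iigp1 and Tgtp1 per Igtp read in each library, by treatment group; points are libraries and bars are mean ± SD (n = 3). Irgm1 reads per Igtp read are near 1 in the 3 control libraries and between 0.6751 and 0.7938 in the 9 treated libraries.

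Other IRG genes were taken from a list of the family, of which 9 of 10 matched genes were tested. With doxycycline, 5 rose and 1 fell, beside 33.5% of all genes called, with a median log2 fold change of 0.20 beside -0.01 over all genes. With scaling by library size alone the split was 6 and 0. 9930111J21Rik2 (0.69, SE 0.108) and Gm4951 (0.35, SE 0.0474) rose most. With dTAG-13 against control, 6 rose and 3 fell, beside 62.1% of all genes called, with a median of 0.24 beside 0.019 over all genes. Gm5431 (1.05, SE 0.459, adjusted p 0.0452) was at only 0.213 to 0.676 CPM in these libraries and lost its call under several settings, and 9930111J21Rik2 rose by 0.51 (SE 0.11). With the length and GC correction 9930111J21Rik2 was 0.5778. Gm4951 then moved from -0.2764 to -0.5502 and Irgq from -0.4752 to -0.1418, all still called. With dTAG-13 in doxycycline-treated cells, 4 rose and 1 fell, a share below the 64.1% of all genes called, but 2 rose and 3 fell of 8 with the length and GC correction. The changes were led by Irgq (-0.57, SE 0.0619) and 9930111J21Rik1 (0.37, SE 0.063), which were -0.1714 and 0.4069 with that correction. Gm12250, the effector Irgb10, was chosen after its values were seen. Its log2 fold change was 0.30 with doxycycline, -0.33 with dTAG-13 and 0.21 with dTAG-13 in doxycycline-treated cells, all called, and its interaction was 0.54 (SE 0.0541, adjusted p 4.26e-10). These Gm12250 values are without the length and GC correction.

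Guanylate-binding proteins are interferon-induced GTPases that act at the same vacuoles. With doxycycline, 9 of 11 rose and none fell, beside 33.5% of all genes called, with a median log2 fold change of 0.57. Gbp5 rose from 16.28 ± 0.135 to 39.52 ± 1.85 CPM (SD, n = 3; log2 fold change 1.28), and Gbp8 by 0.91. With dTAG-13 against control, 4 rose and 2 fell (6 and 1 with scaling by library size alone, 2 and 3 with the length and GC correction), a share below the 62.1% of all genes called, led by Gbp8 (0.29) and Gbp4 (0.23). Gbp8 was not called without control replicate 1 (0.1975), control replicate 3 (0.2936) or dTAG-13 replicate 3 (0.1597). Its call was also lost with DESeq2 (0.2936), in a fit on only the groups compared (0.2904) and with the length and GC correction (0.1507). With dTAG-13 in doxycycline-treated cells, 2 rose and 3 fell, a share below the 64.1% of all genes called, led by Gbp5 (-0.47) and Gbp7 (-0.27).

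The list of the IFNγ signal and its transcription factors had 15 of 16 genes tested. With doxycycline, 8 rose and 2 fell (median 0.17), beside 33.5% of all genes called, led by Stat2 (0.55), a transcription factor of interferon signalling, and Socs1 (0.41), an inhibitor of the pathway. With dTAG-13 against control, 5 rose and 8 fell (7 and 6 with scaling by library size alone), beside 62.1% of all genes called, led by the phosphatase gene Ptpn11 (-0.45) and the inhibitor gene Socs3 (-0.42), of which Ptpn11 was -0.1291 with the length and GC correction. With dTAG-13 in doxycycline-treated cells, 4 rose and 8 fell (median -0.22 beside 0.0032 over all genes), beside 64.1% of all genes called, led by Stat3 (-0.53) and Ptpn11 (-0.44). With the length and GC correction Stat3 was -0.1894 and still called, Ptpn11 was -0.053 and not called, and 2 genes of the list were called higher and 6 lower. Irf1, a transcription factor induced by IFNγ, was chosen after its values were seen. Its log2 fold change was 0.17 with doxycycline, 0.20 with dTAG-13 against control and 0.10 with dTAG-13 in doxycycline-treated cells, all called. The last call was lost with the length and GC correction (0.021).

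Atg8 conjugation proteins are needed for IRGs to load onto vacuoles. With doxycycline, 3 of 12 rose, a share below the 33.5% of all genes called, led by Gabarap (0.31) and Map1lc3b (0.15). The Map1lc3b call was lost without control replicate 1 (0.1118) or doxycycline replicate 1 (0.091). With dTAG-13, 10 rose and 1 fell both against control and in doxycycline-treated cells, beside 62.1% and 64.1% of all genes called. Atg12 (0.41) and Atg10 (0.38) led the former, and Gabarapl2 (0.46) and Atg10 (0.39) the latter, but with the length and GC correction Atg10 was not called, Gabarapl2 was 0.1681 in the latter, and the median of the list against control moved from 0.285 to 0.064, with 4 higher and 1 lower (6 and 2 in doxycycline-treated cells). Of 9 ubiquitin and membrane partners, 4 rose and 3 fell with doxycycline (5 and 2 with scaling by library size alone), beside 33.5% of all genes called, led by Optn (0.50) and Vcp (-0.21). With dTAG-13 against control, 3 rose and 4 fell, and in doxycycline-treated cells, 2 rose and 5 fell, beside 62.1% and 64.1% of all genes called. Rnf213, a large ubiquitin ligase, fell by 1.00 and 0.65 on the log2 scale in these comparisons, but was -0.5294 and -0.1535, still called, with the length and GC correction. Vcp, an ATPase that extracts ubiquitinated proteins, fell by 0.75 and 0.60.

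**Figure D4:**
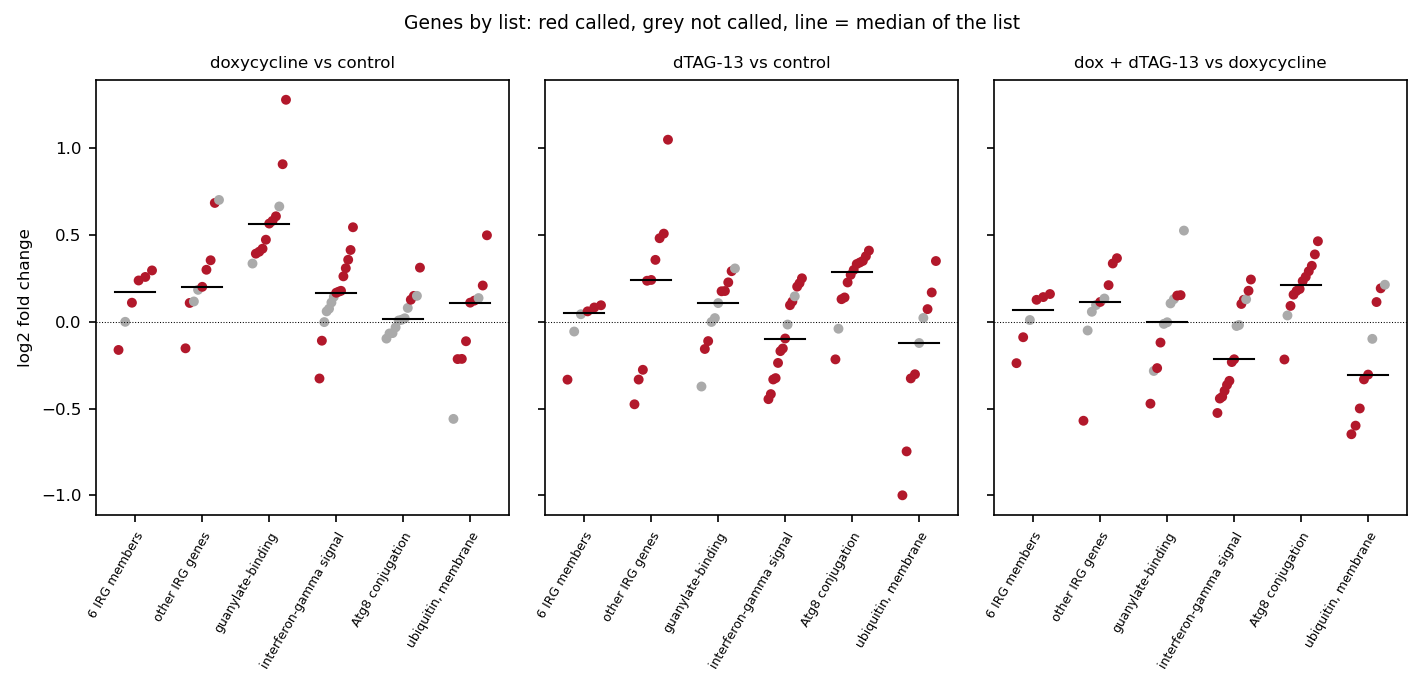
Log2 fold change of every tested gene in the 6 IRG genes and the 5 related lists, in 3 comparisons; red points were called at an edgeR adjusted p under 0.05 and lines are medians. Guanylate-binding proteins have the highest median with doxycycline, at 0.57.

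Genes outside the family with the most similar pattern were found by Pearson correlation of log2 CPM over the 12 libraries, which are 4 cultures, among 10067 genes. Irgm1 was most like Tnks1bp1 (r = 0.9851), Irgm2 like Slc39a10 (0.9877) and the nitric oxide synthase gene Nos2 (0.9748), and Igtp like Itgb7 (0.9896) and Adpgk (0.9887). Iigp1 was most like Gsto1 (0.9944) and the chemokine gene Ccl2 (0.9854), and Tgtp1 like Chmp2a (0.9709). Nos2 was 20.92 ± 1.49 CPM with doxycycline and 6.06 ± 0.592 to 8.06 ± 0.516 CPM in the other groups (SD, n = 3), so that, as for Irgm2, the doxycycline libraries were above all others. Ccl2 was 31.39 ± 1.22 CPM in control and 57.93 ± 2.77 CPM with both agents. Within the family, Igtp and Iigp1 had r = 0.957, and Irgm1 and Tgtp1 had r = -0.622.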

How the data were processed

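RNA sequencing of 12 libraries was used, 3 in each of 4 groups. The authors deposited raw read counts per Entrez gene, made with featureCounts on mm10 after bcl2fastq 2.17, per the submitters' processing notes, and aligned with Subread, per the file headers. Not given in these sources are the strand setting, the read length and the treatment of multi-mapping reads, which makes Tgtp1 and Tgtp2 uncertain. RefSeq (GRCm38.p6) gave 25275 symbols and GENCODE 18, and 1886 IDs had none.

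The counts were analysed with edgeR 4.0.16 (R 4.3.3). After filterByExpr 12910 genes remained, and libraries were scaled by TMM (factors 0.965 to 1.035). A model of 1 mean per group over all 12 libraries was tested for 6 contrasts with the two-sided quasi-likelihood F test, with Benjamini-Hochberg adjustment over all genes and a call under 0.05. Scaled counts are given as CPM. Alternatives included DESeq2 1.42.0, other scalings and filters, a replicate block, left-out libraries and a spline correction for transcript length and GC content (5 degrees of freedom, 11745 genes). The code was tested on simulated data. The named genes were the 6 members, for each list the 2 called genes with the largest change in 3 comparisons, and the 2 genes outside the family most like each member (mean of at least 5 CPM, pseudocount 0.5 CPM), of which some are not reported here. The members and lists were chosen with earlier results of these data known.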

Additional observations from a re-analysis of the deposited data

Results flagged for a closer look

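The dTAG-13 difference of Irgm1 was not the same with and without doxycycline, by the edgeR interaction test (log2 value 0.2447, SE 0.0304, adjusted p 7.17e-08). Its log2 fold change with dTAG-13 was -0.33 without doxycycline and -0.089 with it.

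The dTAG-13 difference of Irgm2 also differed, in the other direction (log2 value -0.1823, SE 0.036, adjusted p 0.000197). Its log2 fold change was -0.056 without doxycycline, which was not called, and -0.24 with it. Each group was 1 culture, so these are differences among 4 cultures.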

How the results depend on the processing

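Of 36 values, 6 genes in 6 comparisons, 15 were called with the same sign in every alternative. Those are Irgm1 in each comparison except both agents against dTAG-13, and some values of Irgm2, Igtp, Iigp1 and Tgtp2. DESeq2, RLE size factors, no filter and a fit on only the groups compared changed no direction or call of the 6 genes. The correction for transcript length and GC content changed most. For dTAG-13 against control it gave -0.0763 for Igtp, -0.2045 for Iigp1, -0.1097 for Tgtp1, -0.0984 for Tgtp2 and -0.0243 for Atg10, all opposite in sign. For both agents against doxycycline it gave -0.1343 for Igtp, -0.0869 for Iigp1, -0.0174 for Tgtp2 and -0.0476 for Atg10. For both agents against control it gave -0.0337 for Tgtp1 and left 3 genes called, and for the interaction 4 genes were called. Scaling by library size only left 3 genes called for both agents against dTAG-13. Summing Tgtp1 and Tgtp2 lost the Tgtp2 call with doxycycline (0.0348). Beyond the correction itself, the cause was not tested. Replicate numbers did not clearly pair the libraries. Same-numbered libraries of different groups correlated at -0.168 to 0.181, with 2 of 18 pairs over 0.1, and differently numbered ones at -0.152 to 0.24. In 0 libraries was the mean correlation with the same number above the highest with another number. Single correlations could still be highest with the same number, as for control replicate 1 with dTAG-13 replicate 1 (0.181). The replicate block changed no call of the 6 genes and moved the genes called with doxycycline from 4331 to 4172. The replicate block with the length and GC correction gave, for dTAG-13 against control, -0.0763 for Igtp, -0.2044 for Iigp1, -0.1098 for Tgtp1, -0.099 for Tgtp2 and -0.0238 for Atg10. For both agents against doxycycline it gave -0.1342, -0.0869, -0.0179 and -0.0456 for Igtp, Iigp1, Tgtp2 and Atg10, and against control -0.0339 for Tgtp1, with 3 genes called there and 4 in the interaction. Leaving out a library kept direction and call in 414 of 432 fits, with 10 calls lost and 8 gained. With the longest transcript as the length, the per-kilobase order changed as given above.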
